A study of Mus musculus with 2 samples.

Results

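The genes described here are the suppressors of cytokine signalling Socs1 to Socs7, the related gene Cish, and the PIM kinase genes Pim1 and Pim3. They were chosen by gene name, and all 10 were found among the 55414 genes of the deposited expression table. RNA of NHOS cells, a mouse osteosarcoma line, was sequenced from 1 mock culture and 1 culture transfected with IL10RB, the beta chain shared by the receptors of interleukin-10 and related cytokines. Both cultures were kept in medium with serum and Geneticin (G418). The labels do not give the species of the construct or whether the cells were clones. With a single library on each side, conditions could not be tested against each other, and every interval given is a 95% interval that covers counting error only. In bulk RNA, fewer cells that express a gene and less RNA per cell cannot be told apart.

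Cytokine receptors of the class that includes IL10RB signal through JAK kinases, which phosphorylate STAT transcription factors. STATs then switch on genes that act back on the pathway. The SOCS proteins and CISH are such inhibitors: each has an SH2 domain, which binds phosphorylated tyrosines, and a SOCS box, which recruits a cullin-5 ubiquitin ligase. SOCS1 and SOCS3 also block JAK activity directly. PIM kinases are serine/threonine kinases without a known regulatory domain, so that their activity follows their amount, and Pim1 is a well known target of STAT3 and STAT5.

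Reference promoters are printed for the 3 genes that held a match to a motif, among the 7 whose start regions were searched. RefSeq windows (build GRCm38.p6) run from 250 bases before a transcript start to 50 bases after it, so the start is base 251. Of 11 genes, the 10 and Pim2, windows of 7 were searched. Socs2, Socs5, Socs6 and Socs7 were not searched, so whether their start regions hold a motif is not known. The STAT motif searched was TTCNNNGAA, which reads the same on both strands, and 8.30% of all 32851 windows hold it. The interferon regulatory factor motif, GAAA followed by any 2 bases and GAAA again, was searched on both strands and is held by 3.44% of windows. Capitals mark the STAT motif in Cish and Socs3, and 2 overlapping matches to the interferon regulatory factor motif in Socs1.
Cish, chr9:107296409-107296708, plus strand: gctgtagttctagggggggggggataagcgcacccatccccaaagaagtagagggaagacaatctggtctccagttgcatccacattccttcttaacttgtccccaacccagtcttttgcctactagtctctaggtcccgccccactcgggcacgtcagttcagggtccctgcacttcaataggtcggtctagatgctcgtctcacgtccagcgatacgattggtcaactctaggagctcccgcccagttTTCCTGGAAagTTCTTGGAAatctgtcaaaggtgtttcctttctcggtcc
Socs1, chr16:10785487-10785786, minus strand: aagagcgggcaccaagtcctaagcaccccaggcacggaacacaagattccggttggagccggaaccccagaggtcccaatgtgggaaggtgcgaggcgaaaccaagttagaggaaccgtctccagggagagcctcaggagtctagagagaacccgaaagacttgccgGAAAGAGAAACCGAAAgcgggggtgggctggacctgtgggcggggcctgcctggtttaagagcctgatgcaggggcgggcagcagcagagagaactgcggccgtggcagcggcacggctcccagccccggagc
Socs3, chr11:117969317-117969616, minus strand: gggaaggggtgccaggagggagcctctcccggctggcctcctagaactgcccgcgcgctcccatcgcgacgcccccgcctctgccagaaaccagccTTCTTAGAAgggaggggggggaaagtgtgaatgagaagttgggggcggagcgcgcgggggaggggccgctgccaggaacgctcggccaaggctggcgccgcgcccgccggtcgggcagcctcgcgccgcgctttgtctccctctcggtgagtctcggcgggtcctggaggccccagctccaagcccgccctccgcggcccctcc
The Cish window holds the STAT motif at bases 251 to 259 and 262 to 270, and 0.457% of all windows hold 2 or more. The Socs1 window holds the interferon regulatory factor motif at bases 168 to 177 and 174 to 183, and 0.225% of all windows hold 2 or more. Socs3 has its STAT motif at bases 97 to 105. Neither motif was found in the windows of Socs4, Pim1, Pim3 and Pim2, which says only that these letters are not there. A match is a description of the reference and not a measured binding site.

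Library totals were 18766040 estimated counts for mock and 23898112 for the transfectant. Fewer genes had a count in the larger library, 19691 in the transfectant against 24857 in mock, of 55414 listed. The part of this in genes with low counts was not tested. Folds are ratios of CPM, the count scaled to library size, with TMM factors. Coordinates are those of the deposited table, whose build the sources used here do not name. A gene was called at a fold of 2 on the scale of log2(CPM + 0.5), among the 11952 genes that reached 50 counts in either library. Il10rb, the transfected gene, had 484 mock and 1641 transfectant counts and was 2.57-fold higher (2.32 to 2.85). The construct's species is not stated, and 1573 of those 11952 genes had a higher log2 fold. The value is therefore only a weak check of the labels. Osteoblast lineage markers were present, 9 of 9 past the floor of 50 counts.

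Of the 10 genes, 2 (Cish and Socs1) reached 2-fold higher levels in the transfectant library, as did 19.7% of all genes past the floor. Another 4 (Pim1, Socs4, Pim3 and Socs7) were at least 2-fold lower, against 11.9% of all genes. Socs2, Socs3, Socs5 and Socs6 were within 2-fold, as were 68.4% of all genes. The median log2 fold was -0.49 over the 10 genes and 0.07 over all genes past the floor. All 10 passed the floor, Cish only through the transfectant library, in which it was high. The same 6 genes were past 2-fold with their whole counting interval, which holds for 15.9% of all genes in the higher direction and 9.14% in the lower.

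Genes listed as markers of other cell types also differed between the libraries, and whether such cells were present was not tested. All 6 fibroblast markers were past 2-fold in the higher direction, or 4 with upper quartile scaling. Their summed level was 107 (mock) and 354 CPM (transfectant), with none at 0. Many leukocytes are known to express Socs1 and Cish, and of 10 leukocyte markers 3 were past the floor, 2 higher and 1 lower, with a summed level of 7.26 and 35.0 CPM. The higher ones were Lyz2, with 5 mock and 626 transfectant counts (95-fold, 40.5 to 294), and Cd68, with 12 and 150 (9.49-fold, 5.27 to 18.8), and Csf1r was lower, with 57 and 24. Of the other 7, Tyrobp and Itgam had 0 counts in both libraries, Ptprc had 27 and 0, Cd3e 13 and 0, Adgre1 1 and 0, Laptm5 14 and 35, and Cd79a 5 and 15. Of 6 endothelial markers, Flt1 was higher (254 and 949 counts) and Esam lower (62 and 21), with a summed level of 18.5 and 40.4 CPM and with Cdh5 and Tek at 0 counts in both libraries. Epithelial markers held Krt14 alone past the floor, which was lower (752 and 10 counts), with a summed level of 41.4 and 1.36 CPM and with Epcam and Krt8 at 0 counts in both. The 9 osteoblast lineage markers had 3 higher and 0 lower. The part of these marker differences in the results on the 10 genes and on the pathway lists was not tested.

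**Figure D1:**
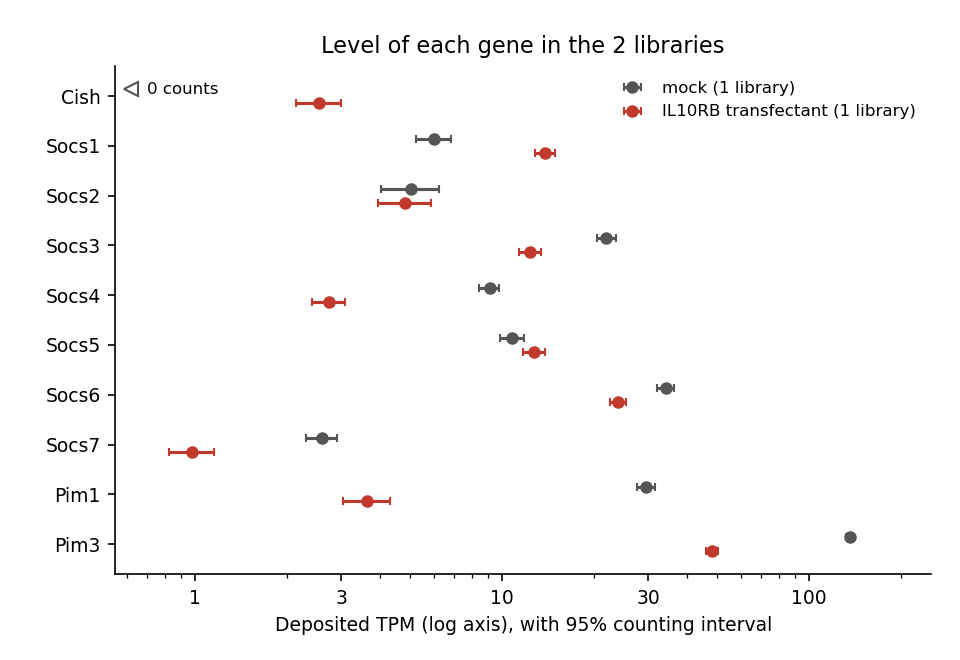
Level of each gene as deposited TPM, a length-scaled unit, on a log axis, with 1 point per library and bars for the 95% counting interval. Pim3 was the highest in both libraries at 136 and 48.4 TPM, and Cish had 0 counts in mock and 2.53 TPM in the transfectant.

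Cish, the founding member of the family and a feedback inhibitor of STAT5 signalling, had 0 mock and 141 transfectant counts. At that depth the exact 95% interval of the mock level reaches 0.2 CPM, and the transfectant level was 5.80 CPM (4.88 to 6.84). Set against 3 mock counts (0.163 CPM), a fixed stand-in for 0, the transfectant level was 35.7-fold higher. The exact 95% interval of the ratio, which also takes in the counting error of the transfectant, has a lower limit of 28.6. Cish (ENSMUSG00000032578.8) is on chromosome 9, plus strand, 107173225 to 107179983. Gm17040 and Gm17041, antisense genes that overlap it, had 0 counts in both libraries. Only 113 of the 11952 genes past the floor had a higher log2 fold.

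Socs2, the closest relative of Cish and a brake on growth hormone signalling, was level within its counting interval. It had 88 mock and 101 transfectant counts, or 5.05 and 4.83 TPM. The ratio of transfectant to mock was 0.871 with an interval of 0.648 to 1.17, which holds 1. A difference of Socs2 was therefore not detectable at this depth, and the interval leaves room for a change of up to 1.54-fold downward. Socs2 (ENSMUSG00000020027.19) is on chromosome 10, minus strand, 95221224 to 95253042.

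Socs1, which restrains interferon and interleukin-4 signalling by inhibiting JAKs, had 233 mock and 723 transfectant counts. It was 2.35-fold higher in the transfectant (2.03 to 2.74), at 13.8 against 5.99 TPM. Socs1 (ENSMUSG00000038037.6) is on chromosome 16, minus strand, 10600104 to 10603400, the chromosome that also holds Il10rb. Socs3, which binds gp130-type receptors and restrains interleukin-6 family signals, differed in the other direction. It had 761 mock and 580 transfectant counts and was 1.73-fold lower (1.55 to 1.93), at 21.9 against 12.3 TPM. The Socs3 interval lies below 1 and short of 2-fold. Socs3 (ENSMUSG00000053113.4) is on chromosome 11, minus strand, 117856905 to 117860873.

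The balance of these paralogs differed between the libraries. The ratio of Socs1 to Socs3 TPM was 0.274 in mock and 1.12 in the transfectant. In counts the ratio differed by 4.07-fold (3.39 to 4.89, normal approximation on the log scale). A ratio within a library does not depend on library scaling. In the transfectant the TPM intervals of Socs1 (12.8 to 14.9), Socs5 (11.7 to 13.8) and Socs3 (11.4 to 13.4) overlapped, so their order there is not resolved.

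Socs4, which acts on the epidermal growth factor receptor, had 693 mock and 255 transfectant counts. It was 3.58-fold lower (3.10 to 4.15), at 2.73 against 9.11 TPM. Socs5 is its closest paralog and also acts on that receptor. It had 469 mock and 590 transfectant counts, a ratio of 0.955 (0.844 to 1.08). The Socs4 to Socs5 count ratio was 3.42-fold lower in the transfectant (2.83 to 4.13). Socs5 differed in sign between units: its deposited TPM were 10.8 in mock and 12.7 in the transfectant, a ratio of 1.18. Socs4 (ENSMUSG00000048379.10) is on chromosome 14, plus strand, 47514388 to 47533559, and Socs5 (ENSMUSG00000037104.10) on chromosome 17, plus strand, 87415107 to 87445267.

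Socs7, which binds adaptors such as NCK and insulin receptor substrates, had 283 mock and 140 transfectant counts. It was 2.66-fold lower (2.17 to 3.29), at 0.977 against 2.59 TPM, and was the lowest of the 10 genes in the transfectant. Socs6, its paralog, which binds the receptor kinase KIT, was the most abundant SOCS gene in both libraries. It had 944 mock and 1073 transfectant counts, a ratio of 0.863 (0.790 to 0.942). The deposited TPM of Socs6 were 34.1 and 23.9, a ratio of 0.702, which is outside that interval. Counts per TPM unit shifted between the libraries by 1.23 times the median gene for Socs6 and by 0.815 times for Socs5. For the other members with counts in both libraries the shift was between 0.916 and 1.04, so Socs5 and Socs6 are the genes whose ratio depends on the unit. Socs7 (ENSMUSG00000038485.7) is on chromosome 11, plus strand, 97253261 to 97289368, and Socs6 (ENSMUSG00000056153.16) on chromosome 18, minus strand, 88683348 to 88945605. The 3 pseudogenes that overlap Socs6 (Gm50404, Gm6409 and Gm50406) had 0 counts in both libraries.

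Summed over the 8 SOCS genes with Cish, the TPM were 89.5 in mock and 73.9 in the transfectant. Socs6 made up 38.1% and 32.4% of that sum. Socs1 accounted for 6.69% in mock and 18.7% in the transfectant, whereas Socs3 went from 24.4% to 16.7%. The share of Socs4 was 10.2% in mock and 3.70% in the transfectant. The sum differed less between the libraries than did the shares of Socs1 and Socs4.

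Every PIM kinase gene was lower in the transfectant library. Pim1 showed the widest difference, from 831 mock to 132 transfectant counts, which was 8.30-fold lower (6.90 to 10.0). In CPM it was at 45.0 (42 to 48.2) and 5.43 (4.54 to 6.44), and in TPM at 29.5 and 3.63. Only 55 of the 11952 genes past the floor had a lower log2 fold. Pim1 (ENSMUSG00000024014.9) is on chromosome 17, plus strand, 29709727 to 29715086. Gm26885, an antisense long noncoding gene, overlaps its first 1173 bases and had 217 mock and 153 transfectant counts. Since strand was not stated, reads in that overlap cannot be assigned to either gene.

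Pim3, the most abundant of the 10 genes, had 4182 mock and 2033 transfectant counts. It was 2.71-fold lower (2.57 to 2.86), at 48.4 against 136 TPM, and its interval is the narrowest of the group. Pim3 (ENSMUSG00000035828.12) is on chromosome 15, plus strand, 88746389 to 88749929. Pim2, the remaining kinase of the family and no member of the group above, was also lower, with 244 and 147 counts, a 2.19-fold difference (1.78 to 2.70). The difference was larger for Pim1 than for Pim3, and their count ratio was 3.06-fold lower in the transfectant (2.53 to 3.71). The summed TPM of the PIM genes were 174 in mock and 55.9 in the transfectant, of which Pim3 was 78.2% and 86.6%.

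**Figure D2:**
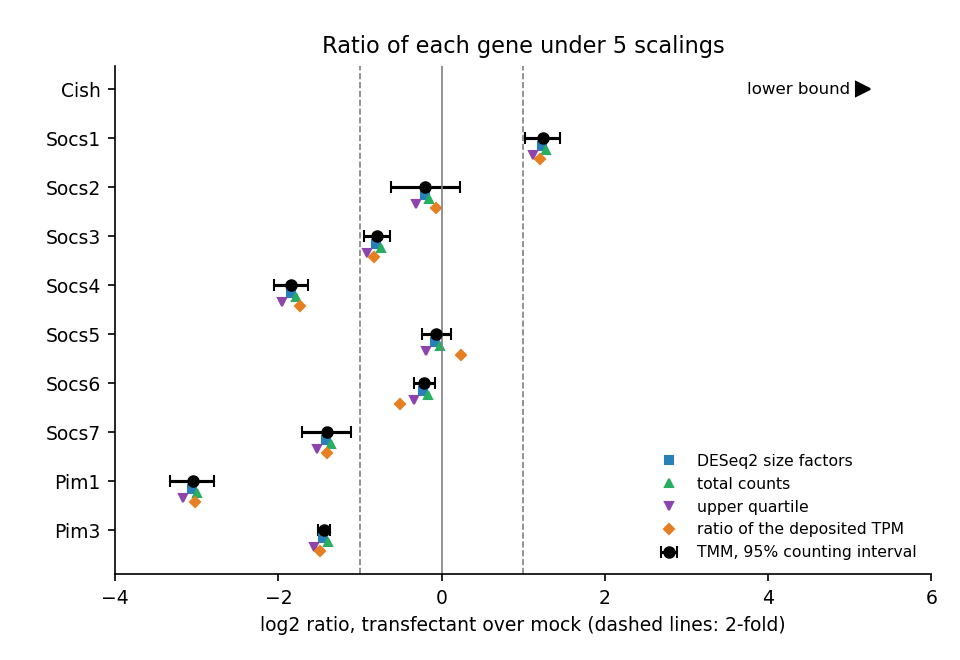
Log2 ratio of transfectant over mock for each gene, with TMM scaling as black points and 95% counting intervals, and 4 other scalings as coloured marks placed beneath for legibility. Pim1, Socs4, Pim3 and Socs7 lie left of the 2-fold line and Socs1 right of it under every scaling drawn. Cish, with 0 counts in mock, is drawn once at a log2 ratio of 5.16, labelled a lower bound, with its transfectant level set against 3 mock counts. The lower limit of its exact 95% interval is 4.84 and is not drawn.

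**Figure D3:**
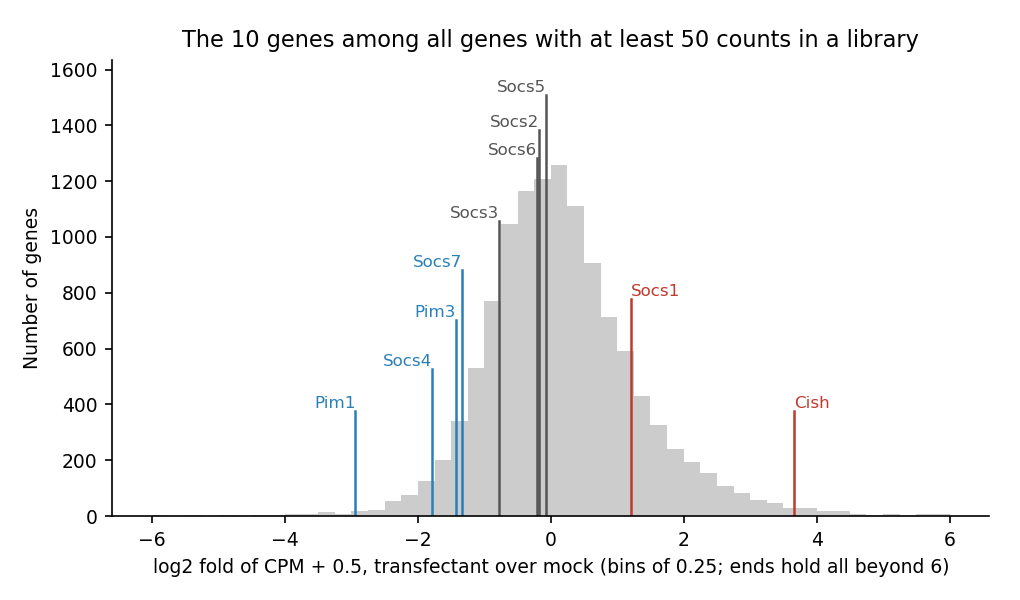
Number of genes by log2 fold among the 11952 genes past the floor of 50 counts (grey bars), with the 10 genes as vertical lines whose height has no meaning. Cish, which passed the floor only through the transfectant library, sits in the upper tail, with 113 genes above it. Pim1 sits in the lower tail, with 55 genes below it.

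The rest of the pathway was read from lists of genes ordered by role. Beside each list stand the values over all genes past the floor, with 19.7% higher, 11.9% lower and a median of 0.07, so that higher calls outnumber lower ones in the background too. Among 18 cytokine ligands, 4 were past the floor, with 1 higher and 2 lower. Lif, a ligand of the gp130 receptor family, had 284 mock and 35 transfectant counts and was 10.7-fold lower (7.51 to 15.7), or 5.12-fold in the deposited TPM. Il11 of the same family, with 75 and 10 counts, was 9.88-fold lower (5.09 to 21.4). Ctf1, cardiotrophin-1, was 5.16-fold higher (4.20 to 6.38). Neither Il6 nor Il10 reached the floor, at 9 and 7 counts for Il6 and at 1 and 0 counts for Il10.

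Of 20 receptor chains, 15 were past the floor, 5 higher and 1 lower, with a median log2 fold of 0.76. The transfected gene Il10rb is among the 5. Il11ra1, which binds interleukin-11, was 8.06-fold higher (7.19 to 9.05), and the leptin receptor Lepr 3.58-fold (3.26 to 3.94). Il4ra, the interleukin-4 receptor chain, was 6.15-fold lower (4.78 to 8.0). The gp130 chain itself, Il6st, which SOCS3 binds, was nearly level at a ratio of 1.13 (1.05 to 1.21).

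Among the JAK and STAT genes, Stat5a, with 280 and 941 counts, was 2.55-fold higher (2.23 to 2.93). Stat5b, which shares reads with Stat5a through their close sequence, was at a ratio of 1.00 (0.917 to 1.1). Stat3 was at a ratio of 0.848 (0.811 to 0.887), Jak1 at 0.864 (0.831 to 0.899) and Jak2 at 0.911 (0.835 to 0.993). Jak3, Tyk2, Stat2 and Stat6 were higher by less than 2-fold, and Stat4 had 4 and 1 counts.

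Transcripts known to be induced by STATs were listed by the STAT concerned. All 13 STAT3 targets were past the floor, 1 was higher and 5 lower, and the median was -0.85. The lower ones were Il4ra, Myc (5.45-fold, 5.24 to 5.67), Cebpb (5.19-fold), Fosl2 (3.32-fold) and Vegfa (2.45-fold), and Cebpd was the higher one, at 3.99-fold, joined by another gene with total count scaling (2 higher). Among 7 STAT5 targets 5 were past the floor and Igf1 alone was past 2-fold, with 15 and 164 counts, 8.30-fold higher (4.89 to 15.2). That gene was 36.0-fold higher in the deposited TPM. Bcl2l1, an inhibitor of apoptosis, was 1.95-fold higher (1.78 to 2.13). Whether these targets differ from other genes was not tested, and the STAT lists were fixed with earlier results of these data known.

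Other inhibitors of the pathway, 12 of 13 past the floor, had 4 higher and 1 lower, with a median of 0.19. Usp18, which blocks the type I interferon receptor, was 9.77-fold higher (6.39 to 15.7), on 23 and 296 counts. Ptpn6, the phosphatase SHP-1, was 4.11-fold higher (3.03 to 5.68), and the adaptor gene Sh2b3 was 2.50-fold higher (2.21 to 2.83). Pias3, an inhibitor of STAT3, was 2.25-fold higher, but 1.67-fold in the deposited TPM, and Pias4 was 2.11-fold lower. The lower count rose to 2 with DESeq2 or upper quartile scaling, since Ptpn2 stood at 2.0-fold lower.

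The ligase that the SOCS box recruits had 0 genes higher. Of its 6 partner genes 5 were within 2-fold, with Cul5, the cullin, at a ratio of 0.651 (0.610 to 0.695). Arih2 was 2.06-fold lower (1.93 to 2.19), or 1.95-fold in the deposited TPM. With total count scaling 0 were lower. Among 12 other genes for SOCS box proteins, 4 were higher and 2 lower, with a median of 0.76. Spsb2 was the highest at 3.18-fold (2.67 to 3.80), and Wsb1 the lowest at 2.28-fold lower (2.14 to 2.43). In the deposited TPM Wsb1 was 1.97-fold lower, and with total count scaling 1 of the 12 was lower.

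Proteins known to be bound by SOCS4 to SOCS7 were listed as 8 genes, of which 6 were past the floor, 1 higher and 2 lower. The insulin receptor gene Insr was 2.29-fold lower, the insulin receptor substrate gene Irs2 2.52-fold lower, and the adaptor gene Nck2 3.49-fold higher. Egfr, bound by SOCS4 and SOCS5, had 26 and 20 counts, and Kit, bound by SOCS6, had 1 and 0.

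Genes for PIM substrates were listed with Pim2, 16 in all. Of the 14 past the floor, 1 was higher and 6 lower, with a median of -0.78, and Pim2, a kinase and not a substrate, is among the 6. Cdkn1a, the cell cycle inhibitor p21, was 9.30-fold lower (7.89 to 11), and Myc is counted here as well. Eif4ebp1, a repressor of translation initiation, was 3.30-fold lower (3.19 to 3.42), and Mdm2, the p53 ligase, 2.52-fold lower. Bad, a promoter of apoptosis, was 2.21-fold higher (2.03 to 2.40).

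**Figure D4:**
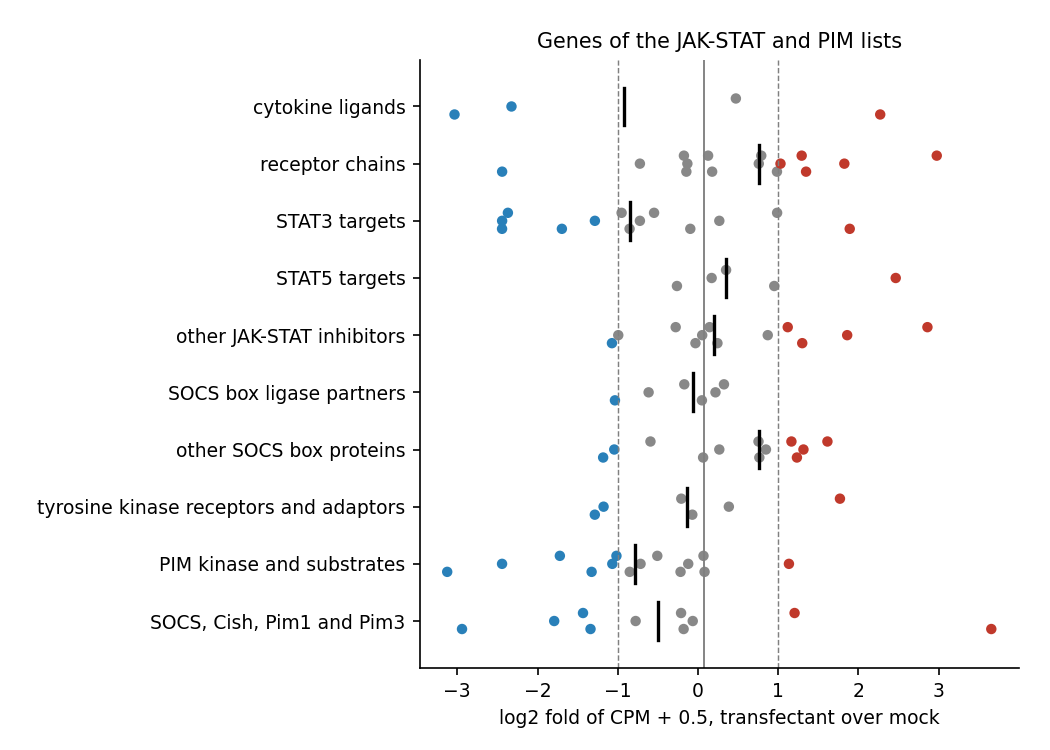
Log2 fold of CPM + 0.5 for every gene past the floor in the lists with counts given in the text and in the 10 genes, red for at least 2-fold higher and blue for at least 2-fold lower, with a black bar at each list's median and a grey line at the median of all genes, 0.07. The medians of STAT3 targets (-0.85) and PIM substrates (-0.78) lie to the left of that line, and that of receptor chains (0.76) to the right.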

How the data were processed

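Each of the 2 libraries has 2 deposited columns, the estimated count and the TPM of every gene, per the file headers. Libraries were made with the SMART-Seq v4 kit, per the labels' protocols. The submitters' processing notes name DRAGEN, with no version or role, and the sources used here give no aligner settings, build or strand. The authors' estimated counts were rounded to whole numbers. The deposited TPM were scaled for length and depth by the authors. Reads are not independent molecules, so intervals cover counting error only.

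Scaling used TMM factors of 0.983 and 1.02 (edgeR 4.0.16, R 4.3.3). DESeq2 1.42.0 gave size factors for an alternative, and no test was run with either. A single count equals 0.0542 (mock) or 0.0411 CPM (transfectant). Ratios carry exact conditional (Clopper-Pearson) intervals, and levels exact Poisson intervals. Calculations used Python 3.11.15, scipy 1.17.1, numpy 2.4.6 and pandas 2.3.3, and the calling was tested on simulated counts.

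The members and lists were chosen with earlier results of these data known. All members, Il10rb and Pim2 were named, with JAKs and STATs, genes overlapping a member, and up to 4 genes of each list with the largest fold. Further names from the lists (such as Il6, Il6st, Vegfa, Pias4, Ptpn2 and the markers), the paralog ratios, the transcript features and the interferon regulatory factor motif were chosen after values were seen. Not every gene and list that the rule names is reported here. With 2 libraries, no likeness between gene patterns was computed. Alternatives were other scalings, pseudocounts, floors, folds, interval calls and the deposited TPM.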

Additional observations from a re-analysis of the deposited data

How the results depend on the processing

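The direction of all called members held under every alternative tried. Of 59 alternative values of member folds, 53 lay within the counting interval. The others, as log2 ratios, were 0.24 for Socs5 and -0.51 for Socs6 in the deposited TPM, -1.56 for Pim3 with upper quartile scaling, -2.66 for Pim1 with a pseudocount of 2 CPM, and 3.66 and 1.96 for Cish with pseudocounts of 0.5 and 2 CPM. A pseudocount pulls low levels together by construction, and for Socs5 and Socs6 the cause was not tested. With a floor of 200 counts 1 member (Socs1) was higher, since Cish did not reach it, and 4 were lower. Of the 9956 genes past that floor 17.6% were higher and 11.9% lower. At a fold of 4, 1 member was higher (Cish) and 1 lower (Pim1), and over all genes 772 (6.46%) and 219 (1.83%). At a fold of 1.5, 3666 genes (30.7%) were higher and 2853 (23.9%) lower, with Socs3 joining the lower members. Without a floor 2316 genes were lower. Upper quartile scaling put the median log2 fold of all genes at -0.04 against 0.07, with 2056 higher and 1755 lower. Il10rb stayed within its interval in 6 alternatives. No paired analysis was possible because there was a single library on each side. Depth limits Cish in mock and Socs2 most.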

Other observations

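Message tails were compared across the genes for AU-rich elements, which lie after the stop codon of many inducible messages. In the longest complete coding transcript of GENCODE M21 (GRCm38), Pim1 held 3 and Cish 2 copies of the AU-rich nonamer (ATTTA with TT on either side) after the stop codon, and the other 8 genes held 0. Of 19072 protein coding genes, 7.45% hold at least 1. The shorter pentamer ATTTA occurred at 5.19 per kb in Pim3, 3.66 in Pim1, 3.28 in Socs4, 2.76 in Cish and 2.71 in Socs3, against a median of 1.31 over all genes, and 0 times in Socs1. Of these, Pim1, Pim3, Socs4 and Socs3 were lower in the transfectant, Socs3 by less than 2-fold, and Cish and Socs1 were higher. The density was also above the median of 1.31 in Socs6 (2.49), Socs2 (1.72) and Socs5 (1.54), which were within 2-fold. Socs7, which was called lower, was below that median at 0.965. Message stability was not measured, and the part of these features in the differences was not tested.

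The coding lengths set the family in 2 classes. Cish and Socs1 to Socs3 have 594 to 771 coding bases, and Socs4 to Socs7 have 1308 to 1737. Summed TPM of the short class were 32.9 in mock and 33.5 in the transfectant, and those of the long class 56.6 and 40.3. The Reactome names in the deposited table cover 6 of the 10 genes and leave out Socs4, Socs7, Pim1 and Pim3. These are also the 4 genes called lower, but the share of all genes without such a name was not computed. The match is therefore not read as a result. Socs1 and Socs3 share the interferon names there although they differed in direction.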
